A study of Caenorhabditis elegans with 16 samples.

Results

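The transcriptome-wide response of wild-type worms to heat shock was measured in N2, the laboratory wild-type strain of Caenorhabditis elegans, at the L4 stage, the last larval stage. The 3 heat-shocked and the 3 standard N2 libraries were taken by their labels and paired by the ending of their titles, which gave 6 of the 16 libraries of the study. The other 10 came from BB4 and BB21, strains that carry adr-1(gv6) with adr-2(gv42) in BB4, and adr-1(tm668) with adr-2(ok735) in BB21. They entered here through the choice of features tested, the spread between libraries and 1 comparison of responses. Heat-shocked N2 worms were kept at 34 °C for 75 min, at room temperature for 20 min and at 20 °C for 3 h of recovery. Standard N2 worms stayed at 20 °C throughout. N2 carries no introduced allele. RNA came from populations of whole worms, described as biological replicas, and poly(A) RNA was sequenced from one end over 50 nt.

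Heat unfolds proteins, and cells answer it through HSF-1, the transcription factor that switches on genes for chaperones, which bind unfolded proteins and help them refold. Small heat-shock proteins hold unfolded proteins, and HSP70 and HSP90 fold them with the energy of ATP. At the end of L4 the epidermis secretes the adult cuticle, an exoskeleton of collagens, the germ line passes from making sperm to making oocytes, and the intestine begins to make yolk for them.

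Reads per library were 4699505, 8963440 and 30503458 in heat-shocked worms of pairs 1, 2 and 3, against 7809971, 7856224 and 31584576 in standard worms of the same pairs. All values are normalized counts, that is, reads per transcript divided by 1 size factor per library. Each transcript in the table is 1 feature, and some genes have more than 1. Of the 19 genes fixed as tissue and stage markers, 17 were among the genes tested. Genes of muscle (unc-54, a myosin heavy chain, at 9128 to 49951 normalized counts over the 6 libraries), of sperm (msp-3, major sperm protein, at 448 to 3469) and of oocytes (cbd-1, an eggshell protein, at 3219 to 11109) were all read. The yolk gene vit-2, which marks the passage to the adult, was also abundant, at 6769 to 32461 normalized counts. In bulk RNA of whole worms, fewer cells of a type and less RNA per cell cannot be told apart.

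Across 24401 features tested, 2335 rose upon heat shock (9.57%) and 2417 fell (9.91%) in limma, at a Benjamini-Hochberg adjusted p under 0.05. With the further condition of a log2 fold change over 2 in size, 1074 features were upregulated (4.4%) and 148 downregulated (0.607%), and these are called differentially expressed. Upregulated features thus made up 87.9% of those differentially expressed, and 66.7% with quantile normalization. The median log2 fold change of all features was 0.04, or -0.06 with quantile normalization. The rises and falls that were called lay in different ranges of expression. Of the 5327 features with a mean of 1 to 20 normalized counts over the 6 N2 libraries, 10.7% rose and 0.826% fell, whereas of the 3311 features with a mean of 1000 or more, 2.08% rose and 23.7% fell. Called log2 fold changes had a median size of 2.34 in the first range and 0.80 in the last. Low features have little room to fall, and smaller changes were called at high levels. With quantile normalization, 657 features fell in all. Features that rose had a median mean level of 119 normalized counts in heat-shocked worms and 24.5 in standard worms, and those that fell 500.5 in heat-shocked worms and 852 in standard worms. Together the features that rose held 5.47%, 4.25% and 6.21% of all normalized counts in the heat-shocked libraries of pairs 1, 2 and 3, against 1.40%, 1.66% and 1.88% in the standard libraries. Those that fell held 10.2%, 16.9% and 15.5% in heat-shocked worms, against 22.6%, 21.8% and 23.2% in standard worms. These shares describe features chosen by the same values. Among all features tested, every heat-shocked N2 library lay above every standard one in 10.98% (2680), and below every standard one in 7.62% (1859). Such separation alone does not set a gene apart.

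**Figure D1:**
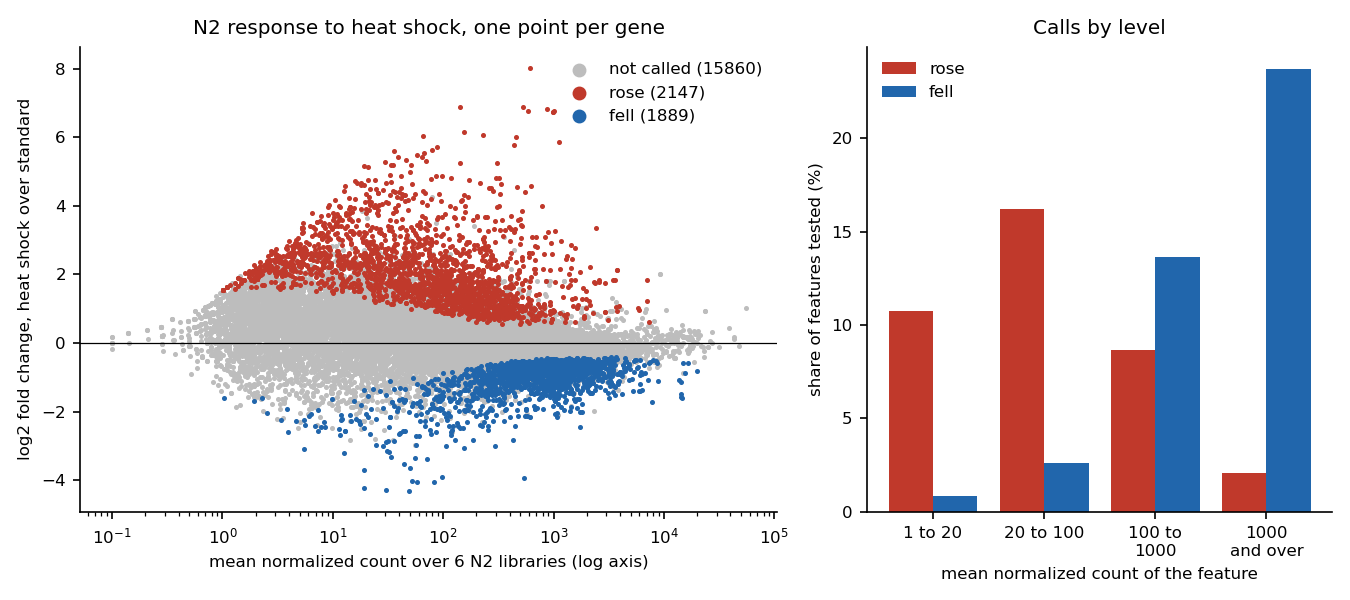
Left, log2 fold change of heat shock over standard for each of 19896 genes against its mean normalized count over the 6 N2 libraries (log axis), with genes that rose in red, fell in blue and others in grey. Right, the share of features that rose or fell in each range of mean normalized count: rises were most frequent between 20 and 100 and falls at 1000 and over (23.7%).

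More genes were read after heat shock. In heat-shocked worms of pairs 1, 2 and 3, 17648, 17836 and 18879 features reached 20 normalized counts, against 16773, 16835 and 17937 in standard worms. At an equal depth of 4699505 reads, the expected number of features with a read was 22739, 22801 and 23771 in heat-shocked worms and 21320, 21522 and 22285 in standard worms. The heat-shocked library was the higher one in each of the 3 pairs, which is too few for a paired exact test to pass.

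The response differed in size among the pairs. Over the 18758 features whose mean reached 20, the log2 ratio of heat-shocked over standard worms had an SD of 1.57 in pair 1, 0.88 in pair 2 and 1.05 in pair 3. The ratio was over 2 for 1740, 537 and 873 features in pairs 1, 2 and 3, and under -2 for 1298, 109 and 326. Pair 1, with the shallowest library of the series, had the widest spread and pair 2 the narrowest. Across features, the ratios of pairs 1 and 2 had a Pearson's r of 0.49, those of pairs 1 and 3 of 0.51, and those of pairs 2 and 3 of 0.52, a description over features that share their libraries. Of the 1222 differentially expressed features, 1204 had the same sign in all 3 pairs, and the largest change lay in pair 1 for 767, in pair 2 for 140 and in pair 3 for 315. The features were chosen by these same ratios, which favours 1 sign in all pairs. Without pair 1, 388 of them still had an adjusted p under 0.05 in limma with the same sign. Why the pairs differed was not tested.

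**Figure D2:**
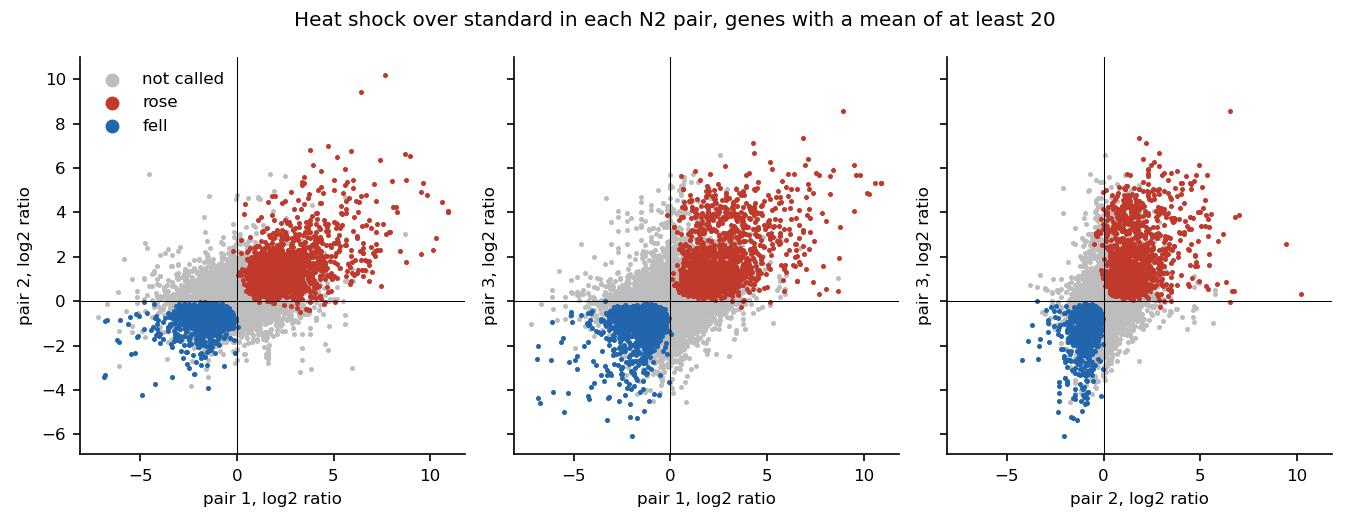
Log2 ratio of heat-shocked over standard worms in 1 N2 pair against that in another, one point per gene with a mean of at least 20 normalized counts. Genes that rose (red) lie mainly in the upper right and those that fell (blue) in the lower left. The points spread most along the axis of pair 1 (SD of 1.57 over features) and least along that of pair 2 (0.88).

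The calls borrow the spread between libraries from the 5 mutant pairs, and they lean on pair 1. Without pair 1, 608 features rose and 420 fell, without pair 2, 2049 and 2184, and without pair 3, 1688 and 1468. Without the pair term, 577 rose and 131 fell. With the 6 N2 libraries alone, 5 features rose and none fell (0 from limma, with 5733 at an unadjusted p under 0.05 in either direction). These fits bear on every count that follows.

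The 5 genes that rose even in the N2 libraries alone rose in each pair, and they are named here with their values known. The normalized count of numr-1, a nuclear protein gene known for its induction by metals, was 802, 2101 and 713 in heat-shocked worms of pairs 1, 2 and 3, against 38.3, 58.6 and 37.3 in standard worms. Its neighbour in name and family, numr-2, stood at 774, 1851 and 554 in heat-shocked worms, against 42.0, 56.9 and 33.3 in standard worms. Every heat-shocked library lay far above every standard one. The log2 fold change was 4.57 (standard error 0.52, adjusted p = 0.00252 in limma) for numr-1 and 4.40 (standard error 0.48, adjusted p = 0.00243) for numr-2. Reads could align to both genes, so their levels are uncertain as separate genes. The cuticle collagen gene col-91 had 694, 754 and 1416 normalized counts in heat-shocked worms, against 52.9, 87.1 and 131 in standard worms (log2 fold change 3.40, standard error 0.32, adjusted p = 0.00207 in limma). C42D4.3 had 495, 961 and 1458 in heat-shocked worms, against 27.4, 72.9 and 109 in standard worms (log2 fold change 3.85, standard error 0.40, adjusted p = 0.00227 in limma). The fifth was C25F9.2. All 5 passed whichever pair was left out, but they had been chosen by a pass in the same N2 libraries.

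Of the genes past both thresholds with a mean of at least 20 and 1 sign in all pairs, 584 were upregulated and 90 downregulated, and the 12 largest changes of each side are described. C25F9.2, a protein-coding gene, led them, with 1395, 257 and 2019.6 normalized counts in heat-shocked worms, against 1.83, 1.78 and 4.38 in standard worms. Its log2 fold change was 8.01 (standard error 0.82, adjusted p = 0.00227 from limma). Another 6 names of the 12 had rising profiles of 1 shape. Of these, F59H6.5 had 1918, 436 and 3606 normalized counts in heat-shocked worms, against 0, 24.9 and 89 in standard worms, and ZK250.10 had 793, 329.6 and 1988 in heat-shocked worms, against 0, 7.11 and 37.7 in standard worms. F33H12.6, Y46B2A.2, Y16E11A.2 and ZK250.9 had the same shape, with log2 fold changes of 6.75 to 6.81. Y16E11A.2 and ZK250.9 held the same reads in every library. Reads could align to several of these features, so their levels are uncertain as separate genes. Y53F4B.7 rose with them, with 1237, 97.5 and 1342 normalized counts in heat-shocked worms, against 0, 12.4 and 46.0 in standard worms (log2 fold change 5.99, standard error 1.14, adjusted p = 0.0106 from limma).

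The other leading genes were all but silent in standard worms, and most belong to families of receptors, peptides and ubiquitin ligase adaptors. The nuclear hormone receptor gene nhr-247 had 726, 29.5 and 102 normalized counts in heat-shocked worms, against 0, 0 and 0.438 in standard worms. This is 498 reads over the heat-shocked libraries and 1 over the standard ones, a ratio of 481 (95% interval 86.0 to 19044, which covers counting error only). For the F-box gene fbxb-117 it was 281 reads in heat-shocked and 1 in standard worms, a ratio of 272 (48.3 to 10762). In the remaining genes the heat-shocked library of pair 2 was the highest. The saposin-like peptide gene spp-21, of a family of membrane-active antimicrobial proteins, had 244, 684 and 4.97 normalized counts in heat-shocked worms, against 1.83, 0 and 0 in standard worms. Its 622 reads in heat-shocked and 1 in standard worms give a ratio of 601 (107 to 23776). The F-box gene fbxa-163 had 203, 1168 and 2.48 normalized counts in heat-shocked worms, against 0, 0 and 1.75 in standard worms, with little difference in pair 3. Its log2 fold change was 6.07 (standard error 1.56, adjusted p = 0.0257 from limma), and the adjusted p was 0.128, 0.111 and 0.0102 without pairs 1, 2 and 3. The calls of the other 11 of the 12 held whichever pair was left out.

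The largest falls were smaller in size and came from genes of modest level. R08E5.1 had 0, 5.13 and 14.5 normalized counts in heat-shocked worms, against 117, 64 and 93.4 in standard worms (log2 fold change -4.30, standard error 0.77, adjusted p = 0.00917 from limma). F17A2.13 had 0, 10.3 and 1.24 in heat-shocked worms, against 43.8, 56.9 and 69.7 in standard worms (log2 fold change -4.28, standard error 0.62, adjusted p = 0.00538). The most abundant of the 12 was dhs-26, a gene of the short-chain dehydrogenase family, with 60.2, 56.4 and 31.9 normalized counts in heat-shocked worms, against 1846, 1057 and 205 in standard worms. Its log2 fold change was -3.92 (standard error 1.02, adjusted p = 0.0263 from limma), or adjusted p = 0.129, 0.0682 and 0.0392 without pairs 1, 2 and 3. The rest were the C-type lectin gene clec-7 (-4.06), the zinc finger gene flh-3 (-4.06), EEED8.15 (-4.02), Y48E1B.8 (-3.91), F23D12.2 (-3.65), Y75D11A.2 (-3.53), B0281.5 (-3.37), C45H4.14 (-3.36) and T25E12.6 (-3.32), each as a log2 fold change. Among these 12 genes, 3 passed without pair 1, 11 without pair 2 and 8 without pair 3. Those that passed without pair 1 were R08E5.1 (adjusted p = 0.0416), F17A2.13 (0.0326) and C45H4.14 (0.0342).

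Genes are counted below by the feature with the highest mean, and of all 19896 genes 2147 rose (10.8%) and 1889 fell (9.49%), with a median log2 fold change of 0.11. Of the 16 genes for small heat-shock proteins, 6 rose and none fell, with a median of 1.40. All 6 belong to the hsp-16 family, the heat-inducible small heat-shock proteins of the worm, and several are near copies of each other. The normalized count of hsp-16.2 was 5399.6, 1639 and 1438 in heat-shocked worms of pairs 1, 2 and 3, against 332, 1066 and 485 in standard worms. That of hsp-16.41 was 6750.3, 2441 and 1548 in heat-shocked worms, against 456, 1135 and 481 in standard worms. The most abundant, hsp-16.48, had 10717, 3529.5 and 4291 in heat-shocked worms, against 1001, 1958 and 987 in standard worms. Heat-shocked libraries lay above all standard ones for each of these genes, as for 10.98% of all features tested. Yet the rise was steep in pair 1 and shallow in pair 2. The log2 fold change was 2.07 (standard error 0.62, adjusted p = 0.0417 from limma) for hsp-16.2, 2.22 (standard error 0.51, adjusted p = 0.0191) for hsp-16.41 and 2.13 (standard error 0.52, adjusted p = 0.0221) for hsp-16.48. Reads of hsp-16.49 were those of hsp-16.48 in every library, and hsp-16.1 and hsp-16.11, whose reads could align to both, had a log2 fold change of 1.83 each. Without pairs 1, 2 and 3, 0, 7 and 2 genes of the list rose. With all pairs, DESeq2 called 7 and edgeR 5 of the 16.

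The other 10 small heat-shock proteins did not pass. Among them hsp-12.6 had 438, 71.8 and 138 normalized counts in heat-shocked worms, against 63.9, 69.3 and 27.2 in standard worms (log2 fold change 1.70, standard error 0.65, adjusted p = 0.0826 from limma, and 0.0372 without pair 2). The constitutive hsp-25 and sip-1, a small heat-shock protein of oocytes and embryos, had log2 fold changes of -0.09 and -0.69, and the range over the list was -0.69 to 2.22.

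The 3 genes for heat-inducible HSP70 did not pass the test (0 of 3 from limma, DESeq2 and edgeR, with 2 at an unadjusted p under 0.05), and pair 2 went the other way. F44E5.4 had 16183, 2606 and 28076 normalized counts in heat-shocked worms, against 1444, 3193 and 3899.7 in standard worms. For hsp-70 (C12C8.1) the values were 2847, 628 and 3178 in heat-shocked worms, against 354, 1162 and 1618 in standard worms. Both were higher in heat-shocked worms of pairs 1 and 3 and lower in those of pair 2. The log2 fold change was 2.01 (standard error 0.80, adjusted p = 0.092 from limma, and 0.0299 without pair 2) for F44E5.4 and 1.03 (standard error 0.79, adjusted p = 0.364, and 0.129 without pair 2) for hsp-70. The near copy F44E5.5 shared the profile of F44E5.4.

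**Figure D3:**
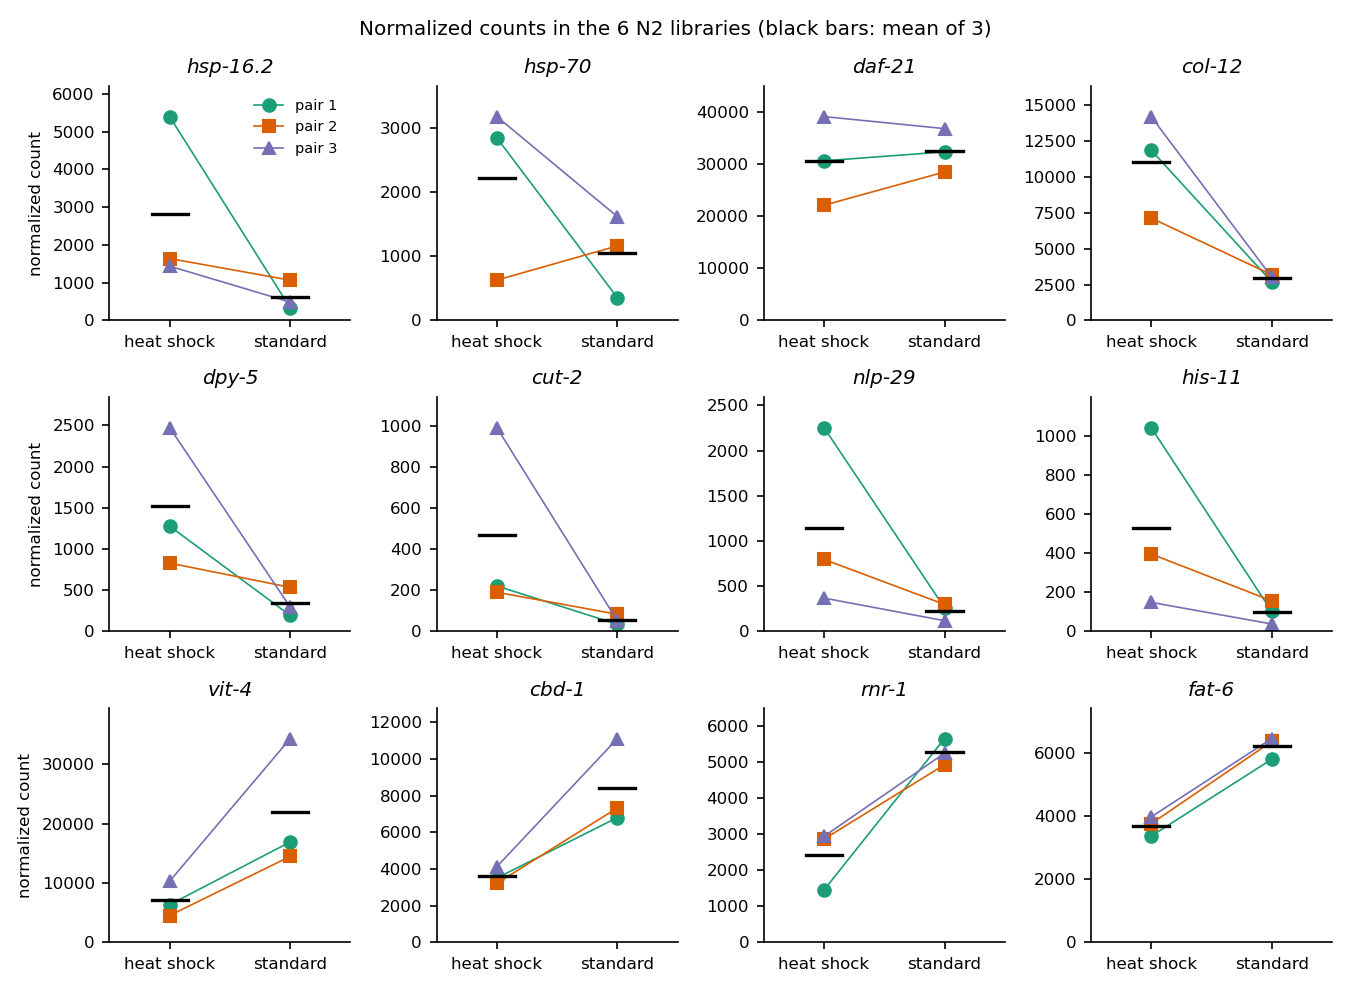
Normalized counts of 12 genes in the 6 N2 libraries, heat-shocked on the left and standard on the right of each panel, with a line for each pair and black bars for the mean of 3. The heat-shocked points of hsp-16.2, col-12, dpy-5, cut-2 and nlp-29 lie above all standard ones and those of vit-4, cbd-1, rnr-1 and fat-6 below, while the line of pair 2 runs the other way for hsp-70.

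Few genes of the constitutive folding machinery passed the test, which does not show that they were unchanged. Of 14 genes for cytosolic HSP70, HSP90 and their partners, none rose (0 from limma, DESeq2 and edgeR, and 0 at an unadjusted p under 0.05) and 1 fell, chn-1, the ubiquitin ligase that acts with chaperones. Its normalized count was 574, 961 and 667 in heat-shocked worms, against 1504, 1342 and 1027 in standard worms (log2 fold change -0.83, standard error 0.19, adjusted p = 0.0187 from limma, and 0.0789 without pair 1). HSP90, encoded by daf-21, had 30587, 22072 and 39064 normalized counts in heat-shocked worms, against 32304, 28445 and 36756 in standard worms, and the groups overlapped (log2 fold change -0.12, standard error 0.18, adjusted p = 0.66). None of the 8 subunits of the CCT chaperonin, which folds actin and tubulin, passed (0 from limma, with 1 at an unadjusted p under 0.05, and 1 that fell by DESeq2 and by edgeR). None of 21 genes for chaperones and stress sensors of the endoplasmic reticulum passed either (0 from limma, with 8 at an unadjusted p under 0.05, 2 up and 6 down, and 2 that fell by DESeq2 and 0 by edgeR), and without pair 2, 2 rose and 2 fell. The medians of the 3 lists were -0.26, -0.31 and -0.21. Of 31 proteasome genes 4 fell and none rose, at a median of -0.31, and none passed without pair 1 (0). Of all genes 9.49% fell, and of features with a mean of 1000 or more 23.7%. Of 16 mitochondrial chaperone and stress response genes, a list that also holds the glycolytic genes gpd-2 and gpd-3, 3 fell and none rose. The list had a median of -0.30, and none passed without pair 1 (0). The 3 that fell included gpd-2 (log2 fold change -0.56, adjusted p = 0.0466 from limma). Among them the stress sensor atfs-1 fell, at 491, 1117 and 1790.2 normalized counts in heat-shocked worms, against 1592, 1708 and 2509.8 in standard worms (log2 fold change -0.93, standard error 0.21, adjusted p = 0.0179, and 0.0615 without pair 1).

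Of HSF-1 and 7 genes that regulate it or act beside it, none rose and 2 fell. The HSF-1 gene itself, hsf-1, had 409, 445 and 1333 normalized counts in heat-shocked worms, against 562, 695 and 1763 in standard worms, lower in each pair but short of the threshold (log2 fold change -0.50, standard error 0.18, adjusted p = 0.071 from limma). The negative regulator hsb-1, which binds HSF-1, fell (log2 fold change -0.67, standard error 0.19, adjusted p = 0.034, and 0.155 without pair 1). So did sir-2.1, a sirtuin deacetylase (log2 fold change -0.66, standard error 0.20, adjusted p = 0.0417, and 0.213, 0.0537 and 0.0392 without pairs 1, 2 and 3). Among 9 ubiquitin and arsenite-inducible factors the 1 that rose was sqst-1, the autophagy receptor p62, at 4534, 2088 and 5459 normalized counts in heat-shocked worms, against 705, 903 and 1752 in standard worms. Its log2 fold change was 1.84 (standard error 0.29, adjusted p = 0.00614), and it passed without the pair term and whichever pair was left out.

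Many cuticle genes rose. Of 158 cuticle collagen genes named col, 83 rose and 1 fell, with a median log2 fold change of 1.36 and medians of the log2 ratios of 1.31, 0.77 and 1.61 in pairs 1, 2 and 3. The normalized count of col-12 was 11880.4, 7142 and 14219 in heat-shocked worms, against 2691, 3186 and 3023 in standard worms. That of col-167 was 10327, 8823 and 10351 in heat-shocked worms, against 4143, 5203 and 3382 in standard worms. These 2 were the most abundant to rise, with log2 fold changes of 1.85 (standard error 0.24, adjusted p = 0.00404 from limma) and 1.23 (standard error 0.23, adjusted p = 0.00942). The most abundant of all, col-124, had a log2 fold change of -0.22 and did not pass. The 1 that fell was col-101, at 3526, 2689 and 255 normalized counts in heat-shocked worms, against 5176, 4995 and 2544 in standard worms (log2 fold change -1.59, standard error 0.45, adjusted p = 0.0357, and 0.159 without pair 3). Without the pair term 37 of the col genes rose, and without pair 1 44 did.

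Of 18 collagens named for body shape, 9 rose and none fell, with a median log2 fold change of 1.22, and the median log2 ratio was 1.41, -0.11 and 2.55 in pairs 1, 2 and 3, with pair 2 below 0. The gene dpy-5, whose loss makes short worms, had 1278, 829.8 and 2474 normalized counts in heat-shocked worms, against 194, 535 and 295 in standard worms (log2 fold change 2.14, standard error 0.41, adjusted p = 0.0106 from limma, and 0.0636 without pair 1). Without pairs 1, 2 and 3, 2, 10 and 1 of these collagens rose, and 1 rose without the pair term. Of 37 cuticlins and other zona pellucida proteins, which form ridges of the cuticle, 10 rose and none fell, at a median of 1.28, and 9, 9 and 5 rose without pairs 1, 2 and 3. Among them cut-2 had 222, 191 and 994 normalized counts in heat-shocked worms, against 34.7, 83.5 and 52.2 in standard worms (log2 fold change 2.68, standard error 0.59, adjusted p = 0.0163, and 0.0684 and 0.0602 without pairs 1 and 3). Of 13 genes listed for collagen processing 2 rose and 1 fell, and none passed without pair 1 (0). The list is not of such enzymes alone, as it holds tsp-15, which rose, and let-767, which fell. The gene let-767 belongs to the steroid dehydrogenase family (log2 fold change -0.91, standard error 0.21, adjusted p = 0.0179 from limma, and 0.0924 without pair 1). One that rose was dpy-18, a subunit of prolyl 4-hydroxylase, at 3989, 902 and 2107 normalized counts in heat-shocked worms, against 332, 286 and 414 in standard worms (log2 fold change 2.53, standard error 0.48, adjusted p = 0.0106, and 0.0653 without pair 1).

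Hedgehog- and patched-related genes, astacins, and abu and pqn genes rose in part, with the largest median ratios in pair 3. Of 86 hedgehog- and patched-related genes 17 rose and 3 fell, of 35 astacin metalloproteases, which cut cuticle proteins, 11 rose and 1 fell, and of 81 abu and pqn genes, rich in glutamine and asparagine, 18 rose and 3 fell. Their median log2 ratios in pair 3 were 1.86, 1.84 and 0.82, and in pair 1 0.70, 0.29 and 0.50. The hedgehog-related gene grl-21 had 723, 550.2 and 633 normalized counts in heat-shocked worms, against 9.13, 23.1 and 66.2 in standard worms (log2 fold change 4.64, standard error 0.69, adjusted p = 0.00568 from limma). For the astacin gene nas-38 they were 47.6, 189.8 and 597 in heat-shocked worms, against 3.65, 3.55 and 45.1 in standard worms (log2 fold change 4.16, standard error 0.55, adjusted p = 0.00412). Both passed whichever pair was left out. The molting gene mlt-8 had 133, 203 and 1242 in heat-shocked worms, against 34.7, 53.3 and 114 in standard worms (log2 fold change 2.42, standard error 0.36, adjusted p = 0.00553). It was 1 of 3 that rose among 20 molting and larval timing genes, of which lin-41, an RNA-binding timing gene, fell (log2 fold change -0.99, standard error 0.21, adjusted p = 0.0152, and 0.0572 without pair 3). Of the 3 families, 3, 4 and 3 members rose without the pair term, and 9, 6 and 15 without pair 1. Without pair 3, 3 hedgehog- and patched-related genes, 6 astacins and 10 abu and pqn genes rose.

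**Figure D4:**
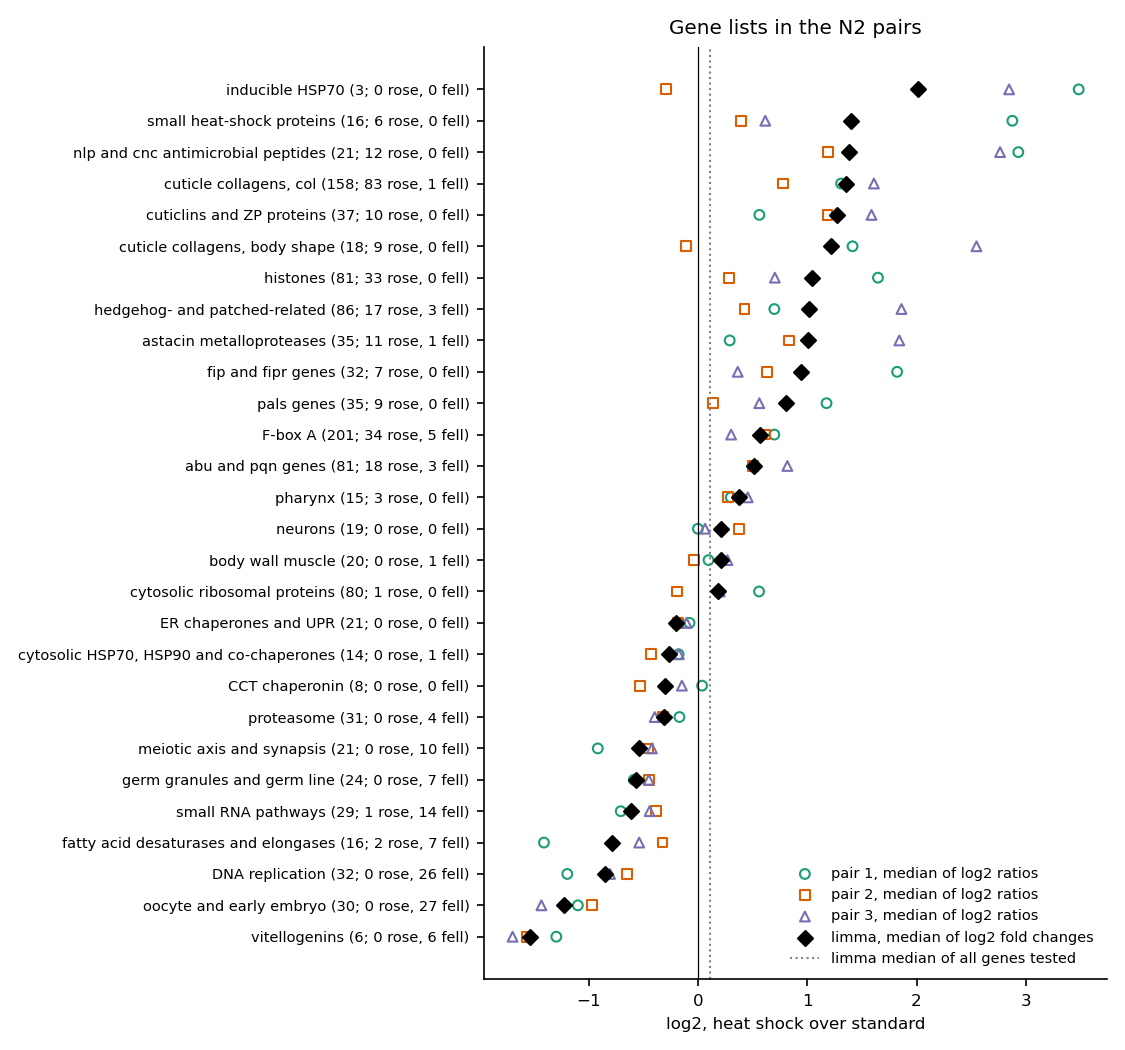
Gene lists, with their number of genes tested and the numbers that rose and fell, against the median log2 change of heat shock over standard. Open symbols give the median log2 ratio in pairs 1, 2 and 3, black diamonds the median log2 fold change from limma, and the dotted line the median of all genes (0.11). The inducible HSP70, small heat-shock and cuticle lists lie to the right and the yolk, oocyte and DNA replication lists to the left. Pair 2 lies nearest to 0 for the inducible HSP70, small heat-shock, col, body shape, nlp and cnc, and histone lists.

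Of 21 nlp and cnc genes, which encode antimicrobial peptides of the epidermis, 12 rose, none fell and 9 did not pass, with a median log2 fold change of 1.38, and 5, 12 and 10 rose without pairs 1, 2 and 3. The normalized count of nlp-29, the best known of them, was 2254, 796 and 369 in heat-shocked worms, against 261, 299 and 118 in standard worms. Heat-shocked libraries lay above all standard ones, as for 10.98% of all features tested. The log2 fold change of nlp-29 was 2.05 (standard error 0.40, adjusted p = 0.0118 in limma, and 0.0673 without pair 1). Of 32 fip and fipr genes, named for induction by fungi, 7 rose, none fell and 25 did not pass, and none rose without pair 1 (0). Of 44 lysozymes and saposin-like peptides, which digest or pierce bacteria, 8 rose and 2 fell. Here ilys-5, an invertebrate lysozyme, fell, at 1845, 1816 and 959 normalized counts in heat-shocked worms, against 4125, 3874 and 1509 in standard worms (log2 fold change -0.97, standard error 0.16, adjusted p = 0.00773). Of 209 C-type lectins, which bind sugars, 16 rose and 18 fell, shares at or below those of all genes. Without pair 1 the lysozymes and saposin-like peptides had 1 rise and 1 fall, and the lectins 5 of each.

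Genes of a stress response to intracellular pathogens also rose. In the list of the cullin-6 ubiquitin ligase, 2 of 6 rose. The cullin gene cul-6 had 187, 244 and 245 normalized counts in heat-shocked worms, against 69.4, 60.4 and 78.0 in standard worms, tight in both groups (log2 fold change 1.68, standard error 0.30, adjusted p = 0.00901 from limma, which held whichever pair was left out). Its adaptor skr-3 had 1728, 1939 and 793 in heat-shocked worms, against 944, 938 and 487 in standard worms (log2 fold change 0.87, standard error 0.23, adjusted p = 0.0264, and 0.0903, 0.0802 and 0.0514 without pairs 1, 2 and 3). Of 35 pals genes, which mark this response, 9 rose and none fell, at a median of 0.81, or 0.10 with 2 that rose and 1 that fell under quantile normalization. The most abundant pals gene, pals-23, had 504, 1004 and 562 normalized counts in heat-shocked worms, against 309, 299 and 334 in standard worms (log2 fold change 1.07, standard error 0.31, adjusted p = 0.0366, and 0.0791, 0.161 and 0.0562 without pairs 1, 2 and 3).

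F-box proteins bring substrates to such ligases. Of 201 F-box A genes 34 rose and 5 fell, and of 115 F-box B and C genes 15 rose and 3 fell, for B and C near the share of all genes. Without pair 1, 8 and 5 rose. The median of the F-box A genes was 0.57, and that of the F-box B and C genes 0.11, or -0.48 under quantile normalization, where 8 rose and 5 fell. The most abundant F-box B or C gene that rose was fbxc-58, at 507, 344 and 109 normalized counts in heat-shocked worms, against 9.13, 14.2 and 17.1 in standard worms (log2 fold change 4.25, standard error 0.65, adjusted p = 0.00605 from limma). The MATH and BTB genes, another family of adaptors, had 8 that rose and 11 that fell of 104. Among them bath-41 fell, at 438, 766 and 924 normalized counts in heat-shocked worms, against 1634, 1567 and 1546 in standard worms (log2 fold change -1.22, standard error 0.21, adjusted p = 0.00878).

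Detoxification genes fell about as often as all genes did. Of 112 glutathione and UDP-glucuronosyl transferase genes 5 rose and 10 fell, and of 76 cytochrome P450 genes 2 rose and 9 fell, with medians of -0.44 and -0.32. The largest rise of the transferases was that of gst-24, a glutathione transferase, at 3875, 1047 and 279 normalized counts in heat-shocked worms, against 184, 171 and 80.6 in standard worms (log2 fold change 2.92, standard error 0.46, adjusted p = 0.00659 from limma, which held whichever pair was left out). In the other direction, ugt-22, a glucuronosyl transferase, had 209, 855 and 1433 in heat-shocked worms, against 3469, 2505 and 1953 in standard worms (log2 fold change -2.01, standard error 0.54, adjusted p = 0.0287, and 0.148 without pair 1). Of 17 superoxide dismutase, catalase, metallothionein and cadmium-responsive genes 5 rose and 2 fell. The cadmium-responsive gene cdr-4 had 2476, 866 and 1492 normalized counts in heat-shocked worms, against 411, 501 and 381 in standard worms (log2 fold change 1.78, standard error 0.41, adjusted p = 0.0194, and 0.109 and 0.0547 without pairs 1 and 3). Without pair 1, 1 transferase gene rose and 0 fell, 1 P450 gene rose and 3 fell, and 0 of the 17 passed.

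Histone genes rose in part, and with all pairs none fell. Of 81, 33 rose, with a median of 1.04 and median log2 ratios of 1.65, 0.29 and 0.70 in pairs 1, 2 and 3. Many histone copies hold the same reads, and of the 65 distinct read profiles 21 rose. The most abundant that rose, his-11, a gene for histone H2B, had 1043, 396 and 149 normalized counts in heat-shocked worms, against 102, 156 and 38.1 in standard worms, higher in each pair (log2 fold change 2.20, standard error 0.49, adjusted p = 0.0172 from limma, and 0.0954 without pair 1). Without pairs 1, 2 and 3, 1, 30 and 12 histone genes rose, and 1 without the pair term. Without pair 1, 1 histone gene also fell. Most histone mRNAs end without a poly(A) tail, so that poly(A) libraries hold only part of them. Among other RNAs that usually lack such a tail, 26 of 77 small nuclear RNA genes rose and none fell, and 10 rose without pair 1. Of 70 small nucleolar RNA genes 7 rose and of 21 rRNA genes 2 rose, both shares near that of all genes. For the 24 small nuclear RNA genes with a mean of at least 20, the median log2 ratio was 3.67, -0.46 and 2.99 in pairs 1, 2 and 3. The summed normalized count of the rRNA genes was 294455, 72778 and 60490.2 in heat-shocked worms of pairs 1, 2 and 3, against 68691, 136316 and 15630 in standard worms, higher upon heat shock in pairs 1 and 3 and lower in pair 2. The inducible HSP70 and body-shape collagen lists had the same signs over the pairs. Full sets of RNAs that usually lack a tail did not share 1 sign in pair 2. There the median log2 ratio was -0.29 over the 21 rRNA genes and 0.06 over all 77 small nuclear RNA genes. It was 0.00 for small nucleolar RNA genes and 0.29 for histones. Whether these patterns are linked, and the part of RNA without a poly(A) tail in these results, was not tested.

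Of 1122 annotated pseudogenes 200 rose and 20 fell, with a median log2 fold change of 0.57, and of the 507 with a mean of at least 20, 124 rose and 17 fell, with a median of 0.25. Of 648 genes annotated as ncRNA 72 rose and 4 fell, and the share that rose was near that of all genes (10.8%). Their median was 1.10, with median log2 ratios of 1.90, 0.00 and 1.05 in pairs 1, 2 and 3. The numbers that rose and fell were 7 and 5 with quantile normalization, and 3 and 3 without pair 1. Protein-coding genes were even, with 1779 that rose and 1859 that fell of 17411, at a median of 0.04. Without pair 1, 49 pseudogenes rose and 3 fell, and 476 protein-coding genes rose and 346 fell, and with quantile normalization the medians of pseudogenes, ncRNA and protein-coding genes were 0.12, 0.47 and -0.04.

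Yolk and oocyte genes fell almost without exception. All 6 vitellogenin genes, which encode yolk proteins, fell, with a median log2 fold change of -1.53. The normalized count of vit-4 was 6363, 4534 and 10318 in heat-shocked worms, against 16936, 14501 and 34364 in standard worms. This was a fall of similar size in each pair (log2 fold change -1.61, standard error 0.17, adjusted p = 0.00243 from limma), and vit-4 passed without the pair term and whichever pair was left out. Genes vit-3 and vit-4 are near copies, and vit-3 had a log2 fold change of -1.57. Of the 6, 4 fell without pair 1, 4 without pair 3 and 4 without the pair term. For vit-2 (-1.08) the adjusted p was 0.064 and 0.0684 without pairs 1 and 3, and for vit-6 (-1.13) 0.0702 and 0.0503.

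Of 30 genes of oocytes and early embryos 27 fell and none rose, at a median of -1.22, and 24, 23 and 21 fell without pairs 1, 2 and 3. The eggshell gene cbd-1 had 3507, 3219 and 4126 normalized counts in heat-shocked worms, against 6805, 7329.8 and 11109 in standard worms (log2 fold change -1.19, standard error 0.16, adjusted p = 0.00457 from limma). The oocyte maturation gene oma-1 had 552, 777 and 1076 in heat-shocked worms, against 1327, 1734 and 2742 in standard worms (log2 fold change -1.26, standard error 0.16, adjusted p = 0.00386). Its partner oma-2 fell as well (log2 fold change -1.45, standard error 0.22, adjusted p = 0.00568). The most abundant of the list was cey-2, a Y-box RNA-binding protein gene, at 4639, 8221 and 4266 normalized counts in heat-shocked worms, against 13906, 12349.6 and 9486 in standard worms (log2 fold change -1.11, standard error 0.21, adjusted p = 0.0103, and 0.059 without pair 1). Without the pair term 7 of the 30 fell. Yolk and oocyte genes mark progress toward the adult, and the developmental progress of the worms was not measured. Heat shock and a difference in developmental progress cannot be told apart in these libraries.

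Of 32 genes of DNA replication, 26 fell and none rose, with a median of -0.85. The large subunit of ribonucleotide reductase, rnr-1, had 1452, 2863 and 2937 normalized counts in heat-shocked worms, against 5647, 4924 and 5243 in standard worms (log2 fold change -1.19, standard error 0.24, adjusted p = 0.0119 from limma, and 0.0552 without pair 1). Its small subunit, rnr-2, had 1759.7, 2092 and 1272 in heat-shocked worms, against 4223, 4725 and 2394 in standard worms (log2 fold change -1.12, standard error 0.17, adjusted p = 0.00568). Heat-shocked libraries lay below all standard ones for both, as for 7.62% of all features tested. Without pairs 1, 2 and 3, 10, 22 and 18 replication genes fell, and 5 without the pair term.

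Of 24 genes of germ granules and the germ line 7 fell and none rose, at a median of -0.56, and of 21 genes of the meiotic chromosome axis and synapsis 10 fell and none rose, at a median of -0.54. The germ granule markers pgl-1 and glh-1 had log2 fold changes of -0.33 and -0.17 and did not pass. The RNA helicase gene cgh-1 fell, at 1557, 1847 and 4899.9 normalized counts in heat-shocked worms, against 2697, 3012 and 10091 in standard worms (log2 fold change -0.85, standard error 0.13, adjusted p = 0.00654 from limma). So did him-17, which acts in meiotic recombination (log2 fold change -0.67, standard error 0.17, adjusted p = 0.0233, and 0.103 without pair 1). Without pair 1, 2 germ line genes and 0 meiotic genes fell. Of 88 sperm genes 14 rose and 1 fell, at a median of 0.19, or below 0 without pair 1, where 2 rose. The most abundant, msp-113, had 13802, 7126 and 2218 normalized counts in heat-shocked worms, against 7639, 7847 and 2979 in standard worms, and the groups overlapped (log2 fold change 0.10, adjusted p = 0.788). The sperm gene spe-18 rose, at 1417, 1240.2 and 921 in heat-shocked worms, against 659, 727 and 589.5 in standard worms (log2 fold change 0.84, standard error 0.17, adjusted p = 0.0143, and 0.0627 without pair 1).

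Intestinal and lipid genes fell in part. Of 16 fatty acid desaturases and elongases 7 fell and 2 rose, and of 22 aspartyl and cathepsin B proteases of the intestine 8 fell and 2 rose. The stearoyl-CoA desaturase gene fat-6 had 3374, 3766 and 3982 normalized counts in heat-shocked worms, against 5812, 6376 and 6468 in standard worms. These groups were tight and apart, yet the adjusted p was 0.0466 from limma (log2 fold change -0.75, standard error 0.23), and 0.149, 0.104 and 0.101 without pairs 1, 2 and 3. The desaturase gene fat-4 had 2679, 4461 and 2837 in heat-shocked worms, against 5959, 5915 and 4485 in standard worms (log2 fold change -0.74, standard error 0.17, adjusted p = 0.0186, and 0.0912 without pair 1). Of 11 intestinal genes 4 fell and none rose. Among these was vha-6, the proton pump subunit of the intestinal surface, at 1620.2, 1953 and 3278 normalized counts in heat-shocked worms, against 3276, 3008 and 5079 in standard worms (log2 fold change -0.76, standard error 0.14, adjusted p = 0.00916). The intestinal regulator elt-2 had a log2 fold change of -0.55 and did not pass. Without pair 1, 0 lipid genes, 2 proteases and 1 intestinal gene fell.

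Small RNA pathway genes fell in number. Of 29, 14 fell and 1 rose, at a median of -0.62, and 4, 11 and 5 fell without pairs 1, 2 and 3. The 1 that rose was alg-3, an Argonaute of the sperm-making germ line, at 780.0, 610.5 and 1286 normalized counts in heat-shocked worms, against 292, 331 and 782 in standard worms (log2 fold change 1.00, standard error 0.18, adjusted p = 0.00942 from limma). The RNA editing gene adr-2, which encodes the active adenosine deaminase, had 732, 982 and 1060.3 in heat-shocked worms, against 1338, 1429 and 1442 in standard worms. It fell with all pairs but passed with none of them left out (log2 fold change -0.62, standard error 0.17, adjusted p = 0.032, and 0.116, 0.0662 and 0.0619 without pairs 1, 2 and 3). Its partner adr-1 did not pass (log2 fold change -0.18, standard error 0.16, adjusted p = 0.44).

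Of 20 genes of body wall muscle 1 fell, of 15 of the pharynx 3 rose, and of 19 of neurons none passed (0 from limma, with 2 at an unadjusted p under 0.05, 1 by DESeq2 and 0 by edgeR). Their median log2 fold changes were 0.21, 0.38 and 0.21, beside 0.11 for all genes. Of 80 ribosomal protein genes 1 rose, rpl-11.2 (log2 fold change 0.61, standard error 0.19, adjusted p = 0.0455 from limma, and 0.23 and 0.136 without pairs 1 and 3), and of 34 genes of the respiratory chain 1 fell. The muscle protein unc-54 had 12648, 9128 and 49951 normalized counts in heat-shocked worms, against 8395, 10008 and 33437 in standard worms (log2 fold change 0.35, adjusted p = 0.301). Nuclear hormone receptors, with 18 that rose and 8 that fell of 242, and ceh homeobox genes, with 6 and 7 of 59, had medians of 0.25 and 0.16, which turned below 0 under quantile normalization.

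The response of N2 was last set against that of the ADAR mutants, with 3 pairs of N2 and 5 of the mutants (3 of BB4 and 2 of BB21). The title endings of N2 pairs 1 and 2 recur in mutant pairs, and a response shared by such an ending was not tested. No feature of 24401 differed in its response (0%), with 0 from limma, DESeq2 and edgeR and 1199 at an unadjusted p under 0.05 in limma. Across features, the log2 fold changes of N2 and of the mutants had a Pearson's r of 0.77. In N2 and in the mutants, the median log2 fold change was 1.40 and 1.02 for small heat-shock proteins, 1.36 and 1.20 for col collagens, 1.38 and 2.61 for nlp and cnc peptides, and 1.04 and 0.76 for histones. It was -1.53 and -1.38 for vitellogenins, -1.22 and -1.23 for oocyte and early embryo genes, and -0.85 and -0.66 for DNA replication. For endoplasmic reticulum chaperones it was -0.21 and 0.19. The feature with the lowest p for a difference, F12F6.17, an ncRNA, rested on 3 reads in heat-shocked and 11 in standard N2 worms. Of the lowest 5, T13F3.6 and Y1A5A.1 changed in the same direction in both, with log2 fold changes of -1.62 and 2.16 in N2 and -2.95 and 0.57 in the mutants (adjusted p = 0.714 in limma for each difference). At this number of libraries, a difference that misses the threshold does not show equal responses.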

How the data were processed

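Total RNA of 16 whole-worm samples was enriched for poly(A) RNA and sequenced. RNA was purified with Direct-Zol or mirVana kits, and which library had which is not given in the sources used here. The authors trimmed and collapsed the reads, aligned them to WS220 transcripts with Bowtie, with multiple alignments allowed, and counted them per transcript. Their deposited signal values are such counts after the authors' division by a DESeq2 size factor, called normalized counts here. Within 0.001, 100% of values came out as whole reads, so reads were recovered. Of 26080 features, 25643 matched the annotation WBcel235, and 722 held the same reads as another. The deposited table of the authors' fold changes and p-values was not used. Versions of the authors' tools are not given in the sources used here.

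Log2 of the normalized count plus 1 was fitted in all 16 libraries with limma 3.58.1 (R 4.3.3, moderated variances with a trend), with a term for each pair and a heat shock term for N2 and for ADAR mutants, over 24401 features whose mean over the 16 libraries reached 1. All fold changes are on this scale, which understates changes of low genes. Tests were two-sided, with Benjamini-Hochberg adjustment over all features. A feature rose or fell at an adjusted p under 0.05 and was differentially expressed when the log2 fold change was also over 2 in size. Pairs came from the strain and biological replicate number in the labels, which in N2 go with the title endings; in 1 BB4 pair the endings differ. Deviations of the heat-shocked and standard library of a pair from their group means correlated at 0.385 to 0.822 in the 8 pairs, but in 3 of them (N2 pair 2, a BB4 pair and a BB21 pair) another library of the genotype correlated more highly (0.561 against 0.385, 0.648 against 0.568 and 0.418 against 0.400). The replicas are called biological, with no word on separate cultures, and p-values measure the spread between these samples. Alternatives were no pair term, another pseudocount, filter or scaling, the count tests of DESeq2 1.42.0 and edgeR 4.0.16 on the reads, the N2 libraries alone, each N2 pair left out, and 1 feature per gene.

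The members and the 50 gene lists, matched by symbol, were chosen with earlier results of these data known. Genes were named by a rule: the 12 highest and 12 lowest fold changes past both thresholds with a mean of at least 20 and 1 sign in all pairs, all heat-shock and HSF-1 list members, from other lists the 2 most abundant that rose, the 2 that fell and the most abundant, and the 5 lowest p against ADAR mutants. Stage and tissue markers are named besides. Other genes named were chosen after their values were seen: numr-1, numr-2, C42D4.3 and col-91. Intervals cover counting error only.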

Additional observations from a re-analysis of the deposited data

Results flagged for a closer look

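In 3 genes, all 3 N2 pairs moved one way and all 5 ADAR mutant pairs the other, by the sign of their log2 ratios. For pdi-3 the log2 ratio of 1 BB4 pair was 0.0026, in effect no change. The log2 fold change in N2 minus that in the mutants was -3.06 for the ncRNA F12F6.17, 2.21 for Y43C5A.4 and -0.54 for pdi-3, a protein disulfide isomerase gene. The log2 fold changes in N2 and in the mutants were -1.68 and 1.38 for F12F6.17, 1.79 and -0.42 for Y43C5A.4, and -0.34 and 0.19 for pdi-3. No difference passed in limma (Benjamini-Hochberg adjusted p = 0.714 each, unadjusted p = 3.90e-04, 4.64e-04 and 0.0124), and the genes were drawn from 205 named by the rule. That rule takes in the 5 lowest p for this same difference, which favours opposite directions. F12F6.17 had at most 5.48 normalized counts in any N2 library.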

How the results depend on the processing

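The counts of features that rose, fell, were upregulated past a log2 fold change of 2 and were downregulated past it were 2335, 2417, 1074 and 148. Without the replicate block, that is, without the pair term, they were 577, 131, 448 and 28, and with the N2 libraries alone 5, 0, 5 and 0. With each N2 pair left out they ranged from 608 to 2049, 420 to 2184, 368 to 1328 and 30 to 289, lowest without pair 1 and highest without pair 2. Quantile normalization gave 870 that rose, 657 that fell and 377 upregulated, and a pseudocount of 5 gave 511 upregulated and 81 downregulated. A mean of at least 20 over the 16 libraries gave 654 upregulated. Other counts under TMM scaling, DESeq2, edgeR, no filter and 1 feature per gene stayed within 1.5 times. The difference between N2 and ADAR mutants gave 0 features in every fit run. Of 205 genes named by the rule, 124 lost their call without the pair term, 155 with the N2 libraries alone, 76 with quantile normalization and 106, 36 and 64 without pairs 1, 2 and 3, and no called gene reversed. The cause was not tested, other than that fits with fewer libraries have fewer degrees of freedom. Low genes are limited by depth, as 1 read in the shallowest library is worth 3.17 normalized counts.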

Other observations

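Genes that rose or fell lay next to each other along the chromosomes. Of 1779 protein-coding genes that rose, 560 (31.5%) had a neighbouring protein-coding gene that rose too, beside 17.2% of all 17411 protein-coding genes tested. For the 1859 that fell it was 561 (30.2%), beside 18.7% of all. Many neighbours are copies of 1 family or share an operon, and reads may align to several copies, so these shares are a description. Of 59 transthyretin-related genes 4 rose and 3 fell, and of 68 flp and insulin-like peptide genes 5 rose and 2 fell. These shares lay below those of all genes, of which 10.8% rose and 9.49% fell. Of 20 Skp1-related genes 1 rose and 4 fell. The insulin-like gene ins-13 fell, at 599, 576 and 1433 normalized counts in heat-shocked worms, against 2909, 3129 and 1659 in standard worms (log2 fold change -1.64, standard error 0.41, adjusted p = 0.0241 from limma, and 0.13 and 0.0944 without pairs 1 and 2).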
